A study of Mus musculus with 2 samples.

Results

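The genes described here serve the presentation of peptides by MHC class I molecules. They are the heavy chain genes H2-K1, H2-D1, H2-Q4, H2-Q6, H2-Q7 and H2-T23, the light chain gene B2m, the peptide transporter genes Tap1 and Tap2, and the regulator gene Nlrc5. They were selected by gene name, and all 10 were found among the 54532 genes with expression values. RNA sequencing compared aortic macrophages between the PDR group (Phlegm-Dampness Retention syndrome) and the SKYD group (Spleen and Kidney Yang Deficiency syndrome), which are diagnoses of traditional Chinese medicine modelled in mice. All mice were male, lacked ApoE (genotype ApoE-/-) on a C57BL/6J background and had a labelled age of 6 weeks. PDR mice received a high-fat diet for 4 weeks. SKYD mice received propylthiouracil, an inhibitor of thyroid hormone synthesis, by gavage at 10 mg/kg per day for 4 weeks and then a high-fat diet for 2 weeks. Syndrome, drug, diet time and total treatment time, which may bring a different age at sampling, cannot be told apart. Aortas were digested with trypsin, cells were sorted on F4/80 and CD11b, and the cells of 5 mice were pooled into 1 library per group. With 1 library per group, the spread between mice is unknown, and no difference given here has a replicate check or a p-value.

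MHC class I molecules display peptides from inside the cell to CD8+ T cells. Proteasomes cut proteins into peptides, the TAP transporter carries these into the endoplasmic reticulum, and there they are loaded onto a heavy chain paired with beta-2 microglobulin. Macrophages carry class I molecules and, on exposure to interferon-gamma, transcribe more of the genes for the heavy chains, the transporter and the inducible proteasome subunits.

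Expression was given as FPKM, sequenced fragments per kilobase of gene, scaled to a library size. FPKM multiplied by gene length fell on whole multiples of a fixed step in each library, so that the reads behind each value could be recovered, to within 0.01 read for 100% of values above 0. The recovered reads on genes summed to 23086889 for PDR and 25427863 for SKYD. The library sizes that FPKM was scaled to were 23487992 for PDR and 24993633 for SKYD. That of SKYD was below its reads on genes, so it was not the plain sum of reads. The 10 genes took 484752 of these reads in PDR, or 2.10% (95% exact interval 2.09 to 2.11), and 355695 in SKYD, or 1.40% (1.39 to 1.40). Differences are in log2(FPKM + 1), PDR minus SKYD, a scale that understates the change of low genes. Folds are ratios of FPKM. Intervals are exact 95% ranges for the division of each gene's reads over both libraries, and they cover counting error only. A gene was tested where its mean FPKM reached 1, which 10399 genes did, and was called where the log2 difference passed 2-fold.

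Of the 10 genes, 9 were tested, and the mean of Nlrc5 was below 1 FPKM. H2-Q6, H2-Q7 and Tap1, 3 of the 9, passed 2-fold with the higher value in PDR, and 0 passed it with the higher value in SKYD. Over all 10399 tested genes, 7.38% were called for PDR and 6.91% for SKYD. H2-K1 and H2-T23 lay just inside the 2-fold limit, and past 1.5-fold there were 5 of the 9, against 15.1% of all tested genes. The median difference of the 9 genes was 0.90, beside -0.0035 over all tested genes. Tap2 alone among the 10 had a difference below 0. In bulk RNA, fewer cells of a type and less RNA per cell cannot be told apart.

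**Figure D1:**
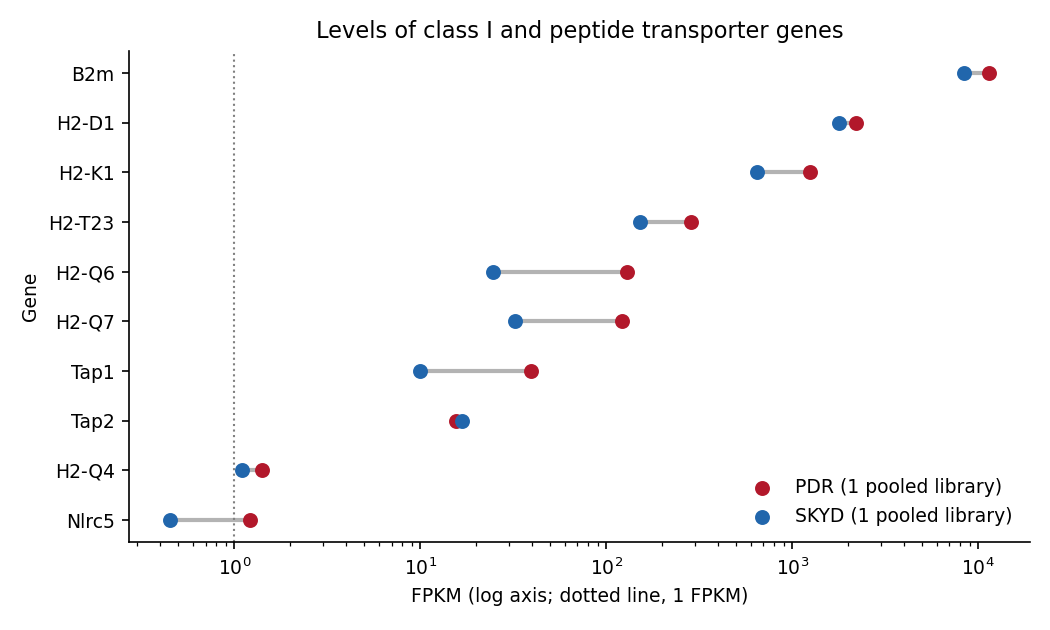
FPKM (log axis) of the 10 genes in the PDR library (red) and the SKYD library (blue), each 1 pool of 5 mice, with a dotted line at 1 FPKM. B2m is highest in both libraries, at 11417 and 8358 FPKM, the red point lies to the right for 9 genes, and the points of Tap2 lie at 15.6 and 16.8.

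H2-K1 and H2-D1 encode the classical heavy chains, which present peptides to most CD8+ T cells. H2-D1 (ENSMUSG00000073411, chromosome 17 from 35262730 to 35267499 of GRCm38) had 2196 FPKM in PDR and 1782 in SKYD, from 133012 and 114866 reads. Its log2 difference was 0.30 (0.29 to 0.31). H2-K1 (ENSMUSG00000061232, chromosome 17 from 33996017 to 34000333) had 1249.7 FPKM in PDR and 650.3 in SKYD, from 76551 and 42388 reads. Its log2 difference was 0.94 (0.92 to 0.96), or 1.92-fold (1.90 to 1.94). The pair therefore differed in size of difference as well as in level. Per length, H2-D1 was 1.76 times as abundant as H2-K1 in PDR (1.74 to 1.77) and 2.74 times in SKYD (2.71 to 2.77). Together they made up 82.0% of the FPKM summed over all class I heavy chain genes of the H2 complex in PDR and 88.4% in SKYD.

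B2m encodes beta-2 microglobulin, the light chain shared by the class I molecules. B2m (ENSMUSG00000060802, chromosome 2 from 122147686 to 122153083) had 11417 FPKM in PDR and 8358 in SKYD, which ranked it 3 and 6 among all genes of the respective library. Its 230625 and 179646 reads gave a log2 difference of 0.45 (0.44 to 0.46). Against the summed FPKM of the 6 heavy chain genes, the level of B2m was 2.87 times as high in PDR and 3.16 times in SKYD. The PDR ratio was 0.906 times the SKYD ratio (0.898 to 0.914).

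H2-Q6 and H2-Q7 encode nonclassical heavy chains of the Qa-2 type. Their differences ranked 1 and 3 in size among the 10 genes, with Tap1 between them. H2-Q6 (ENSMUSG00000073409, chromosome 17 from 35424850 to 35430055) had 129.9 FPKM in PDR and 24.6 in SKYD, a log2 difference of 2.35 (2.27 to 2.44) and a fold of 5.28 (4.97 to 5.61). H2-Q7 (ENSMUSG00000060550, chromosome 17 from 35439155 to 35443773) had 121 FPKM in PDR and 32.4 in SKYD, a log2 difference of 1.87 (1.82 to 1.93) and a fold of 3.75 (3.61 to 3.89). The order of their FPKM differed between the libraries, while H2-Q7, given as the longer gene, had more reads in both. The reads were 6363 for H2-Q6 and 12164 for H2-Q7 in PDR, and 1283 and 3456 in SKYD. H2-Q6 had 1.07 times the FPKM of H2-Q7 in PDR (1.04 to 1.10) and 0.759 times in SKYD (0.712 to 0.810). H2-Q4 (ENSMUSG00000035929, chromosome 17 from 35379617 to 35385290) was low in both libraries, with 1.41 FPKM from 86 reads in PDR and 1.09 FPKM from 71 reads in SKYD. Its log2 difference of 0.20 (-0.06 to 0.46) was not detectable at this depth. The Q genes resemble each other, and the sources used here do not say how reads that fit several genes were counted. Of the 64-base windows in GENCODE transcripts, 26.2% for H2-Q4, 26.4% for H2-Q6 and 20.5% for H2-Q7 also occur in transcripts of another gene, so the values of single Q genes are uncertain. Summed over all 8 H2-Q genes, there were 21779 reads in PDR and 6363 in SKYD, a log2 difference of 1.85.

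H2-T23 encodes Qa-1, the ligand of the NK cell receptor made of CD94 and NKG2A. H2-T23 (ENSMUSG00000067212, chromosome 17 from 36029773 to 36032855) had 284 FPKM in PDR and 152 in SKYD, from 19267 and 10943 reads. Its log2 difference was 0.90 (0.87 to 0.94), close to that of H2-K1. The shared windows were fewer here, 8.84% for H2-T23, 7.10% for H2-D1, 4.91% for H2-K1 and 0% for B2m.

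The promoters of the heavy chain genes are shown because genes with like upstream sequence had differences of unlike size. RefSeq promoters of GRCm38.p6, from 250 bases before to 50 bases after the start, were found for 8 of the 10 genes, and Tap2 and Nlrc5 had no entry. Each line runs from 5 bases before the first to 5 bases after the last matched letters upstream of the start, on the gene's strand, and capitals mark the matches. Stretches over exons of protein-coding genes (H2-D1, H2-T23 and Tap1) are not printed. H2-K1 is shown at chr17:34000354-34000463 on the minus strand, H2-Q4 at chr17:35379439-35379571, H2-Q6 at chr17:35424672-35424804, H2-Q7 at chr17:35439017-35439148 and B2m at chr2:122147545-122147643, all on the plus strand.
H2-K1: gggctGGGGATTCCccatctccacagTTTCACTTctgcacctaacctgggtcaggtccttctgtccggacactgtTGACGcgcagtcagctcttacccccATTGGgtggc
H2-Q4: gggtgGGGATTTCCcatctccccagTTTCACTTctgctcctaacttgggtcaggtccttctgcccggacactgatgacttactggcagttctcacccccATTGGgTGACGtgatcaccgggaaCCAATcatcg
H2-Q6: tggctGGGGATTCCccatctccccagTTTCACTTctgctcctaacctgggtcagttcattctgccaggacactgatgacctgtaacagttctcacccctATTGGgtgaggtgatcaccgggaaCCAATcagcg
H2-Q7: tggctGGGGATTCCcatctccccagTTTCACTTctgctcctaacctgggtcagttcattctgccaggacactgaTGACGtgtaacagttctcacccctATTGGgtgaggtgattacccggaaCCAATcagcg
B2m: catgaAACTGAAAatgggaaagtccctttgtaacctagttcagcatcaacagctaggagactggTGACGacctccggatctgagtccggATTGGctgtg

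The letters and the spacings below were chosen after the promoters were seen, and all shares include the promoters of the described genes. The letters were searched on both strands of all 32817 promoter windows of the same length. A kappa B-like GGGNNTTCC is held by 5.82% of all promoters, the IRF core AANNGAAA by 23.9%, the GAS element TTCNNNGAA by 8.29%, the X2-like TGACG by 20.8% and the Y box ATTGG by 37.4%. No matches of different motifs overlapped in the promoters of the described genes. The IRF core was found in 7 of the 8 promoters, all but that of Tap1. The kappa B-like letters were found in 5, those of H2-K1, H2-D1, H2-Q4, H2-Q6 and H2-Q7, and the GAS letters in 0. In these 5, the IRF core of the opposite strand began 20 or 21 bases after the first of the kappa B-like letters, a spacing held by 10 of all promoters (0.0305%), these among them. TGACG followed by ATTGG at 24 or 25 bases, again from first letter to first letter, on the same strand, the order of the X2 and Y elements bound by the NLRC5 complex, was found for H2-K1, H2-D1, H2-Q7 and B2m and in 43 of all promoters (0.131%), these among them. Both spacings occurred together in promoters of 3 genes of the whole table, H2-K1, H2-D1 and H2-Q7. From the kappa B-like letters to the Y box, H2-Q6 and H2-Q7 differ by 2 edits over 99 and 98 bases, and H2-Q6 holds no TGACG in its window. H2-K1 and H2-Q7 differ by 15 edits there. The log2 differences were 0.94 for H2-K1, 0.30 for H2-D1 and 1.87 for H2-Q7, which hold both spacings, and 2.35 for H2-Q6 and 0.20 for H2-Q4, which lack the spaced TGACG. A match is a description of these letters, and binding was not measured.

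**Figure D2:**
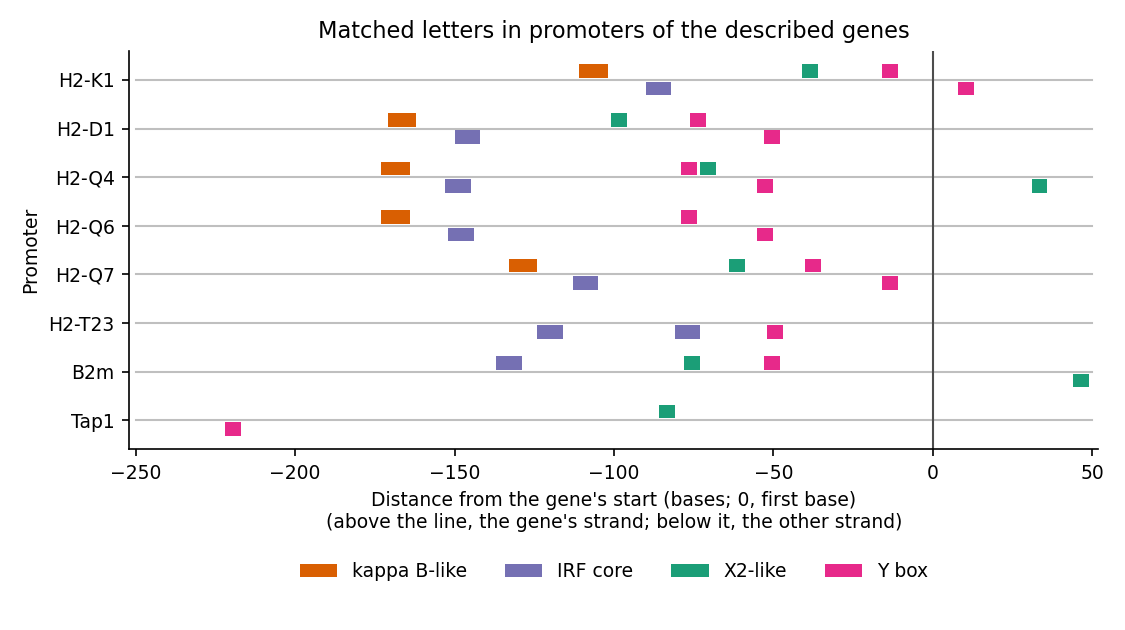
Matched letters in the 8 RefSeq promoters by distance from the gene's start in bases, drawn above the line for the gene's strand and below it for the other strand. The kappa B-like letters (orange) and the IRF core (purple) start 20 or 21 bases apart in the 5 promoters from H2-K1 to H2-Q7, and H2-T23, B2m and Tap1 have no kappa B-like match.

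Tap1 and Tap2 encode the partners of the TAP transporter, and their differences were unequal. Tap1 (ENSMUSG00000037321, chromosome 17 from 34187553 to 34197225) had 39.3 FPKM in PDR and 9.90 in SKYD, from 5055 and 1355 reads. Its log2 difference was 1.89 (1.81 to 1.97), or 3.97-fold (3.74 to 4.22). Tap2 (ENSMUSG00000024339, chromosome 17 from 34203527 to 34216321) had 15.6 FPKM in PDR and 16.8 in SKYD, from 1388 and 1591 reads. Its log2 difference was -0.10 (-0.20 to -0.0024), and -0.05 when reads were scaled to their sum, so that a difference from 0 is not settled. Tap1 was thus the more abundant partner per length in PDR, at 2.51 times the FPKM of Tap2 (2.37 to 2.67), and the less abundant in SKYD, at 0.588 times (0.547 to 0.632). Windows shared with other genes were 2.80% for Tap1 and 9.73% for Tap2.

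Nlrc5 encodes the transactivator of class I genes, which acts with RFX, CREB or ATF1 and NF-Y proteins at the X and Y elements. Nlrc5 (ENSMUSG00000074151, chromosome 8 from 94434356 to 94527272) had 1.21 FPKM in PDR and 0.452 in SKYD, from 241 and 96 reads. In FPKM it was 2.67-fold higher in PDR (2.10 to 3.42), while its difference in log2(FPKM + 1) was 0.60 (0.47 to 0.73). With a pseudocount of 0.1 the difference was 1.24. The gene overlaps 9330175E14Rik on the other strand by 748 bases. That gene had 89 and 31 reads, and whether the counting used strand is not given in the sources used here. The same holds for H2-Q4 and the antisense gene Gm11131, with 16 and 31 reads, and for Tap1 and Psmb9, which overlap by 212 bases. Other genes on the opposite strand had few reads, with 0 and 10 for Patl2 over all of B2m, 5 and 0 for A930015D03Rik over H2-T23, and at most 1 for Gm15821 and Gm20496 over Tap2. The promoter partners of NLRC5 had no call. Of 8 genes, 6 were tested, 0 passed 2-fold and the median difference was 0.04. The median was -0.03 over the genes that reached a mean FPKM of 5. Nfyc had 18.2 FPKM in PDR and 16.4 in SKYD, and Rfxap had 7.96 in PDR and 16.1 in SKYD, the largest difference of the list at -0.93 (-1.09 to -0.78), which passed 2-fold with a pseudocount of 0.1.

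Beyond the described heavy chains, the H2 complex holds 23 other class I heavy chain genes in the table, and 11 were tested. Calls numbered 5 for PDR and 2 for SKYD, beside 7.38% and 6.91% of all tested genes, and the median difference was 0.94. Of the called genes, H2-M10.1 reached the filter only through PDR and H2-Q2 only through SKYD. Among the genes that reached a mean FPKM of 5 there were 4 and 1 calls, and the median with no filter was 0.57. The most abundant was H2-M3, which presents formylated peptides, with 78.9 FPKM in PDR and 40.7 in SKYD, a log2 difference of 0.94 (0.85 to 1.03). H2-T22, which encodes a ligand of gamma-delta T cell receptors, had 57.4 FPKM in PDR and 19.8 in SKYD, a log2 difference of 1.49 (1.41 to 1.57). Its value is uncertain, since 45.3% of its windows occur in transcripts of other genes. H2-Q10, known for its secreted product from the liver, had 2174 reads in PDR and 543 in SKYD, a log2 difference of 1.89 (1.78 to 2.01). Hepatocyte markers were also higher in PDR, 6 of 6 by more than 2-fold, with a median of 1.64, and their part in the value of H2-Q10 was not tested. H2-Q5 had 23.7 and 6.94 FPKM, a log2 difference of 1.64 (1.46 to 1.82), and H2-T24 had 13.9 and 4.95 FPKM, a log2 difference of 1.32. H2-Q2 went the other way. It had 0.644 FPKM from 33 reads in PDR and 11.9 FPKM from 649 reads in SKYD, a log2 difference of -2.97 (-3.18 to -2.74). H2-M2 was the other gene called for SKYD, with 47 reads in PDR and 190 in SKYD. H2-Q3 and H2-Bl, which were not tested, had 0 reads in PDR and 13 and 7 in SKYD. H2-M10.1 had 68 reads in PDR and 0 in SKYD, at least 24.1-fold higher in PDR against the limit of 3 reads that a count of 0 allows. H2-M2, H2-M10.1, H2-T24, H2-Q3 and H2-Bl were chosen after their values were seen. Over all class I heavy chain genes, the summed FPKM was 4199 in PDR and 2750.3 in SKYD, 1.53 times as high.

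**Figure D3:**
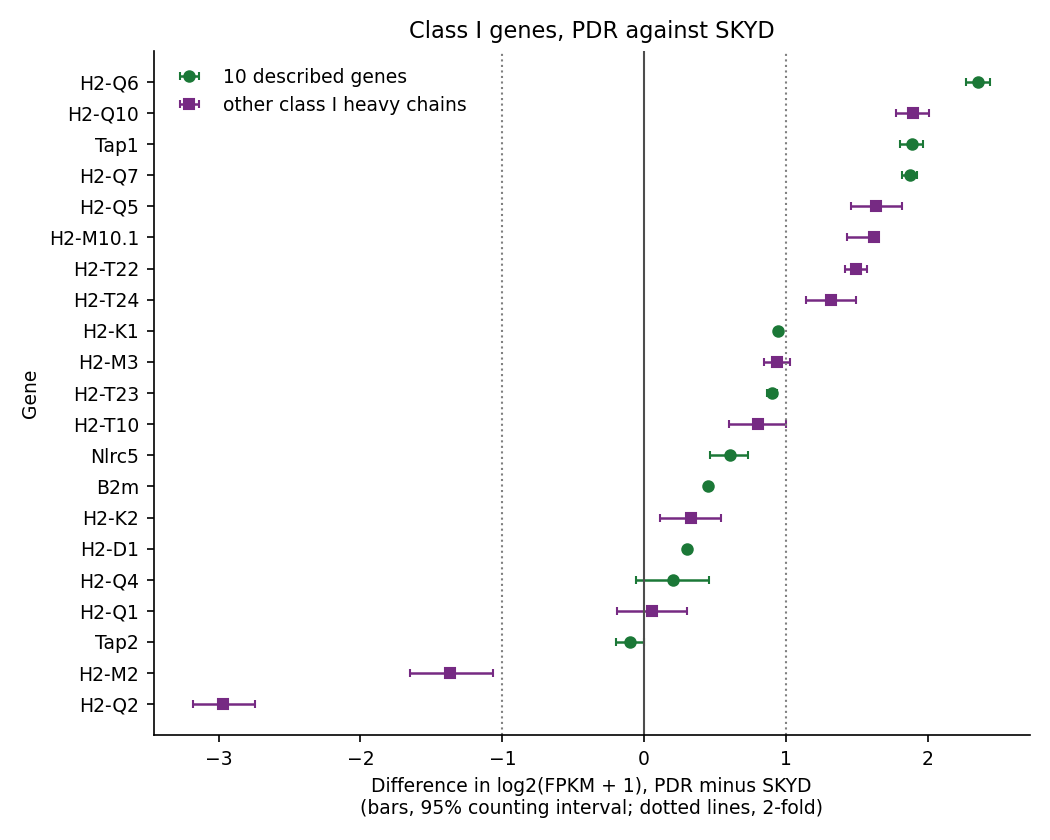
Difference in log2(FPKM + 1), PDR minus SKYD, of the 10 described genes (green) and of the tested other class I heavy chain genes (purple), with 95% counting intervals and dotted lines at 2-fold. The points run from -2.97 for H2-Q2 to 2.35 for H2-Q6, and those of H2-K1 and H2-T23 lie just left of the 2-fold line.

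Position was a further shared property. Chromosome 17 holds 8 of the 10 genes, and B2m and Nlrc5 lie on chromosomes 2 and 8. Between the ends of H2-K1 and H2-T23, from 33996017 to 36032855, 82 genes were tested, with 18 calls for PDR and 10 for SKYD. Among the 20 tested genes named H2 in this stretch, 9 were called for PDR and 1 for SKYD, with a median difference of 0.92. The 58 tested genes of the stretch outside the H2, presentation, loading and proteasome lists had 7 calls for PDR and 9 for SKYD, with a median of -0.10. Both counts are larger shares than the 7.38% and 6.91% over all tested genes.

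Of 8 peptide loading partners, 1 was called for PDR and 0 for SKYD, beside 7.38% and 6.91% of all tested genes. The median difference was 0.09, and 0.35 over the genes that reached a mean FPKM of 5. The called gene was Erap1, an aminopeptidase that trims peptides in the endoplasmic reticulum, with 11.3 FPKM in PDR and 5.08 in SKYD, a log2 difference of 1.01 (0.91 to 1.11). Tapbp, which encodes tapasin and bridges TAP and the empty class I molecule, had 85.9 FPKM in PDR and 53.5 in SKYD, a log2 difference of 0.67 (0.62 to 0.73). Its relative Tapbpl, a peptide editor, had 33.0 and 16.8 FPKM, a log2 difference of 0.93 (0.82 to 1.04). The general chaperones of the loading complex were near equal. Calr had 152 FPKM in PDR and 150.1 in SKYD, and Pdia3 had 207 and 219. Canx had 21.3 and 25.7 FPKM, and Uggt1, the sensor that returns unfolded glycoproteins to the chaperones, had 3.13 and 3.78. Lnpep, which encodes an endosomal aminopeptidase, had 1.54 FPKM in PDR and 1.27 in SKYD.

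The immunoproteasome subunits replace constitutive subunits and change the cut sites, and PA28 opens the proteasome core. All 5 genes had a difference above 0, from 0.68 to 1.39 with a median of 0.93. Of these, Psmb9 and Psme2 were called for PDR, 2 of 5 beside 7.38% of all tested genes. Psmb9 had 133.7 FPKM in PDR and 50.4 in SKYD, a log2 difference of 1.39 (1.34 to 1.44). Psme2 had 433 and 179 FPKM, a log2 difference of 1.27 (1.23 to 1.31). Psmb8 had 313 and 164 FPKM, Psme1 had 249 and 152, and Psmb10 had 219.6 and 136. The genes for the subunits they replace, with Psme3, had 0 calls either way and a median of -0.11. With reads scaled to their sum, the median was -0.06, and the difference of Psmb5 went from -0.04 to 0.01. Psmb5 had 365 FPKM in PDR and 375 in SKYD, Psmb6 had 197 and 247, Psmb7 had 43.8 and 35.8, and Psme3 had 22.0 and 25.2. The ratio of inducible to constitutive subunit was therefore higher in PDR for each of the 3 pairs. Psmb9 stood at 0.680 times the FPKM of Psmb6 in PDR and 0.204 times in SKYD, a ratio 3.33 times as high in PDR (3.19 to 3.48). Psmb8 stood at 0.857 times Psmb5 in PDR and 0.438 times in SKYD, and Psmb10 at 5.02 and 3.81 times Psmb7. Psmb9 and Tap1 start from a shared promoter in opposite directions, with 225 bases between their RefSeq starts. Their differences were 1.39 and 1.89, and the ratio of Tap1 to Psmb9 was 0.294 in PDR and 0.197 in SKYD.

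**Figure D4:**
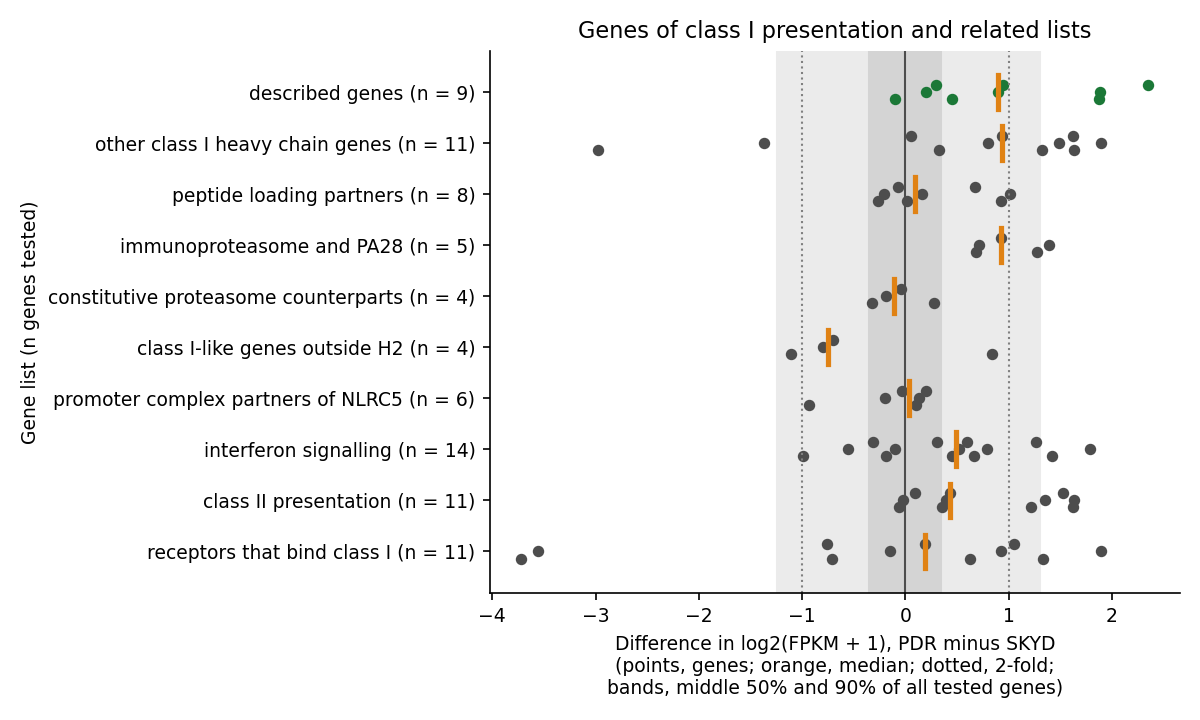
Difference in log2(FPKM + 1), PDR minus SKYD, of each tested gene (points) in the described genes and the related lists, with list medians in orange, dotted lines at 2-fold and grey bands for the middle 50% and 90% of all 10399 tested genes. The medians of the described genes and of the immunoproteasome list lie at 0.90 and 0.93, and that of the constitutive counterparts lies at -0.11.

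Interferon receptors and their signalling genes were compared because class I genes respond to interferon. Of 14 genes, 3 were called for PDR and 0 for SKYD, beside 7.38% and 6.91% of all tested genes. The median of the 14 was 0.49. Irf1 and Irf8, which encode transcription factors, were among the called genes. Irf1 had 56.6 FPKM in PDR and 15.6 in SKYD, a log2 difference of 1.79 (1.71 to 1.87). Irf8 had 33.6 and 13.4 FPKM, a log2 difference of 1.27, from 5566 and 2360 reads. The receptor chains lay on both sides of 0. Ifngr1 had 114 FPKM in PDR and 168 in SKYD, a log2 difference of -0.55 (-0.60 to -0.51), and Ifnar2 had 27.5 and 34.4, a log2 difference of -0.31 (-0.39 to -0.24). Ifngr2, with 37.2 FPKM in PDR and 24.3 in SKYD, and Ifnar1, with 7.80 and 5.13, had differences of 0.60 (0.52 to 0.67) and 0.52 (0.41 to 0.64). Socs1, an inhibitor of this signalling, lay lowest, with 5.23 and 11.4 FPKM and a log2 difference of -0.99. It passed 2-fold with pseudocounts of 0.1 and 0.01, where the list had 4 calls for PDR and 1 for SKYD. The list had 2 and 0 calls among the genes that reached a mean FPKM of 5, and 3 and 1 after rescaling to TPM. Ifngr2, Ifnar1 and Socs1 were chosen after their values were seen.

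Class II presentation displays peptides from outside the cell to CD4+ T cells. It gave 5 calls for PDR and 0 for SKYD among 11 genes, beside 7.38% and 6.91% of all tested genes. The median of the 11 was 0.43. At a mean FPKM of 5 or more, 3 of the calls remained. None of the 3 most abundant genes was called. Cd74, the invariant chain, had 5183 FPKM in PDR and 5257 in SKYD, H2-Ab1 had 2751 and 2581, and H2-Aa had 2907 and 2156, a log2 difference of 0.43 (0.42 to 0.44). The difference of Cd74 was -0.02, and it changed sign when reads were scaled to their sum. Ciita, the class II counterpart of Nlrc5, had 5.55 FPKM in PDR and 1.81 in SKYD, a log2 difference of 1.22 (1.11 to 1.33). H2-DMb2 had a log2 difference of 1.63 (1.58 to 1.69), H2-Oa of 1.62 (1.49 to 1.75) and H2-Ob of 1.52 (1.44 to 1.61). The other called gene, H2-Eb2, had 157 and 32 reads, a log2 difference of 1.35 (1.09 to 1.58), and was chosen after its values were seen. It reached the filter only through PDR. H2-Oa and H2-Ob encode the chains of H2-O, a modulator of peptide exchange known from B cells. B cell markers were higher in PDR as well, and their part in these values was not tested. Per length, H2-K1 and H2-D1 summed to 0.609 times H2-Aa and H2-Ab1 in PDR (0.605 to 0.613) and 0.514 times in SKYD (0.510 to 0.517).

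Class I-like genes outside the H2 complex had a median difference of -0.75 over 4 tested genes. There was 1 call for SKYD (Mr1) and 0 for PDR, beside 6.91% and 7.38% of all tested genes. The calls for SKYD were 0 among the genes that reached a mean FPKM of 5 and 2 with no filter. Their products pair with beta-2 microglobulin but serve other tasks. Hfe, a regulator of iron uptake, had 31.1 FPKM in PDR and 51.1 in SKYD, a log2 difference of -0.70 (-0.77 to -0.63). Fcgrt, the heavy chain of the neonatal Fc receptor, had 29.0 and 51.1 FPKM, a log2 difference of -0.80 (-0.89 to -0.71). Mr1, which presents vitamin B metabolites, had 0.840 and 2.97 FPKM, a log2 difference of -1.11 (-1.26 to -0.95), and reached the filter only through SKYD. Cd1d1, which presents lipids to NKT cells, lay on the other side, with 19.9 FPKM in PDR and 10.7 in SKYD, a log2 difference of 0.84 (0.71 to 0.97).

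Receptors that bind class I molecules went both ways. Of 13 listed genes, 12 were in the table and 11 were tested. There were 3 calls for PDR and 2 for SKYD, beside 7.38% and 6.91% of all tested genes, and the median was 0.19. Over the genes that reached a mean FPKM of 5, there were 1 and 2 calls and the median was -0.15. The genes of the CD8 coreceptor were higher in SKYD. Cd8b1 had 39.7 FPKM in PDR and 535 in SKYD, a log2 difference of -3.72 (-3.80 to -3.64), and Cd8a had 7.81 and 103 FPKM, a log2 difference of -3.56 (-3.66 to -3.46). Klrc1, which encodes the NKG2A chain of the receptor for Qa-1, had 12.9 FPKM in PDR and 2.72 in SKYD, a log2 difference of 1.90 (1.69 to 2.11). Klrd1, which encodes its partner CD94, lay on the other side, with 631 and 1117 reads and a log2 difference of -0.71. The other calls for PDR were Klra8, with 92 and 21 reads, and Klra4, with 142 and 57 reads, and Klrd1, Klra4 and Klra8 were named with their values known. Klra8 reached the filter only through PDR. Pirb, an inhibitory receptor of myeloid and B cells, had 50.3 and 55.9 FPKM.

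The sorted cells were checked by their markers. The F4/80 gene Adgre1 had 87.3 FPKM in PDR and 93.3 in SKYD, and the CD11b gene Itgam had 8.84 and 14.4. Macrophage markers took 3.11% of reads in PDR and 5.62% in SKYD, with Lyz2 the most abundant at 22217 and 41336 FPKM. Lyz2 alone held 686737 of the 718956 marker reads in PDR and 1359594 of 1429196 in SKYD. Of the 10, 0 were called for PDR and 2 for SKYD, among them Cd14. Their median was -0.58, and 3 of the 10, Csf1r, Fcgr1 and Cx3cr1, lay above 0, at 0.35, 0.54 and 0.17. These 3 were picked with their values known. Class I molecules are found on nearly all nucleated cells, and markers of other cells were present and differed between the libraries. Counts of called markers stand beside 7.38% called for PDR and 6.91% for SKYD over all tested genes.

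B cell markers took 0.373% of reads in PDR and 0.0695% in SKYD, a summed 1722 and 390.3 FPKM. All 7 tested genes of 8 were more than 2-fold higher in PDR, with a median of 2.25. The most abundant was Cd79b in PDR (802 FPKM) and Cd79a in SKYD (178 FPKM), and 0 of the 8 were at 0 reads. NK cell markers took 0.0437% and 0.0175% of reads, a summed 419 and 172 FPKM, with 4 of 5 tested genes more than 2-fold higher in PDR. Among the 4, Prf1 reached the filter only through PDR, with 3.53 FPKM in PDR and 0.975 in SKYD. Gzma was the most abundant NK cell marker, at 256 and 115 FPKM, and 0 of 6 were at 0 reads. Hepatocyte markers took 0.216% and 0.0661%, a summed 2072 and 712 FPKM, led by Apoa2 at 793 and 294 FPKM, with 0 of 6 at 0 reads. In the other direction, T cell markers took 0.0678% of reads in PDR and 0.199% in SKYD, a summed 297 and 777 FPKM, with 7 of 8 more than 2-fold higher in SKYD and a median of -2.07. Cd2 led in PDR (156 FPKM) and Cd3d in SKYD (221 FPKM), with 0 of 8 at 0 reads. All 4 immature thymocyte markers were more than 2-fold higher in SKYD, where they summed to 251 FPKM, led by Dntt at 206 FPKM. They reached the filter only through SKYD. In PDR their sum was 0.780 FPKM, all of it from Dntt, and Ptcra, Rag1 and Rag2 were at 0 reads there. Immature thymocytes and CD8+ T cells also carry the CD8 coreceptor. The part of all these cells in the differences of the class I, class II and receptor genes was not tested.

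Neutrophil markers took 0.327% of reads in PDR and 0.247% in SKYD, with a median of 0.40 and 1 of 7 genes more than 2-fold higher in PDR. Erythroid markers took 1.71% and 2.21%, with a median of -0.29 and 0 of 6 genes called. Platelet markers took 0.0197% and 0.105%, led by Pf4 at 218 and 1446 FPKM, with Gp1bb at 0 reads in both libraries. Pf4 was the 1 call, for SKYD, while Ppbp and Gp9 lay above 0, at 0.20 and 0.34, and the median was 0.20. Dendritic cell markers took 0.00346% and 0.00836%, with 1 of 4 tested genes, Siglech, more than 2-fold higher in SKYD. Siglech reached the filter only through SKYD, with 0.491 FPKM in PDR and 11.4 in SKYD. Fibroblast markers took 0.00665% and 0.0253%, with both tested genes, Dcn and Lum, more than 2-fold higher in SKYD. Lum reached the filter only through SKYD, with 0.191 FPKM in PDR and 2.12 in SKYD. Endothelial markers took 0.00286% and 0.00189% of reads, with Pecam1 the 1 gene tested, and smooth muscle markers took 0.00181% and 0.000853%, with Myh11, Tagln and Cnn1 at 0 reads in both libraries. Myl9 was the 1 smooth muscle call, for PDR, with 352 and 113 reads, and Acta2 lay below 0, at -0.39.

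**Figure D5:**
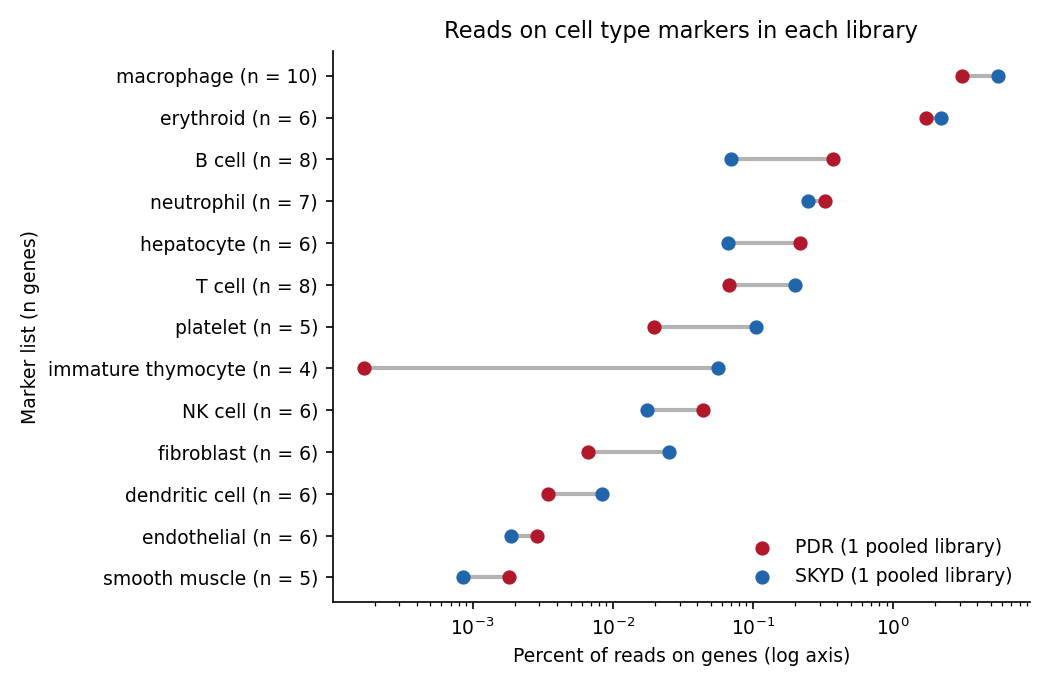
Percent of reads on genes (log axis) that fell on each list of cell type markers for PDR (red) and SKYD (blue). B cell markers lie at 0.373% and 0.0695%, macrophage markers at 3.11% and 5.62%, and immature thymocyte markers are 0.000169% in PDR and 0.0563% in SKYD.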

How the data were processed

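The authors removed adapter and low-quality reads, aligned the rest with Bowtie2 2.0.6 and TopHat2 2.0.9, counted reads per gene with HTSeq 0.6.1 and deposited FPKM with each gene's length. The labels name mm9, but 98.3% of 54409 genes shared with GENCODE vM21 have its GRCm38 start and end. Of the 10 described genes, 9 have the same start and end there. The 10 genes and the lists were chosen with earlier results of these data known. Clopper-Pearson intervals were used for read splits and shares, and normal intervals on the log scale for ratios between genes. Ratios between genes within a library also depend on the gene lengths behind FPKM, which these intervals do not cover. From the lists, the text names all genes of the loading and proteasome lists, regulators such as Irf1 and Ciita, and otherwise genes among the 3 highest in mean FPKM or the 3 with the largest difference, apart from the sort markers, those at 0 and those said to be chosen later. Alternatives were other pseudocounts, filters, scalings and folds. Tools were matplotlib 3.10.9, scipy 1.17.1, pandas 2.3.3 and numpy 2.4.6 under Python 3.11.15. Normal control mice were not analysed here. Lilrb3 had no row in the table.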

Additional observations from a re-analysis of the deposited data

How the results depend on the processing

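The 13 alternatives were other pseudocounts, filters, scalings, thresholds and groupings of the genes. H2-Q6, H2-Q7 and Tap1 were the tested genes more than 2-fold higher in PDR under the main settings, pseudocounts of 0.1 and 0.01, no filter, a mean FPKM of at least 5, TPM, centring, the trimmed mean, the sum of reads and protein-coding genes only. Nlrc5 stayed below the filter with both pseudocounts, where its difference was 1.24 and 1.40. The sign of each of the 10 differences was the same under all scalings and pseudocounts run. With the H2-Q genes summed as one, 2 entries of 7 were higher in PDR, and without Nlrc5, Tap1 and Tap2, 2 genes. The thresholds set the counts by construction. At 4-fold, 1 of the described genes (H2-Q6) was higher in PDR, and at 1.5-fold, 5. Over the other class I and pathway lists, 19 genes were higher in PDR and 5 in SKYD. These became 0 and 3 at 4-fold and 32 and 11 at 1.5-fold, and at a mean FPKM of at least 5, with fewer genes tested, 13 and 3. Over all tested genes, calls for PDR and SKYD were 767 and 719 in the main run, 194 and 216 at 4-fold, 1574 and 1562 at 1.5-fold, 464 and 373 at a mean FPKM of 5 and 542 and 473 among protein-coding genes. At a mean FPKM of at least 5, the called shares were 8.06% and 6.48% of 5760 genes. With no filter, the called shares were 3.94% and 3.92% of 21718 genes. They were 10.5% and 10.1% with a pseudocount of 0.01. No paired analysis was possible because each group had 1 library.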
